A study of Arabidopsis thaliana with 12 samples.

Results

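The comparison described here is that of *pkl-1* against WT seedlings in the 24-nt small interfering RNA (siRNA) of *Arabidopsis thaliana*, counted in 100-bp bins of the 5 nuclear chromosomes. Bins above 5 RPTM (reads per 10000000 mapped reads) in any of the 6 libraries were kept and the ribosomal DNA (rDNA) was left out, which gave 53777 of the 57094 bins of the whole table. The kept bins make up most of the 55757 nuclear bins outside the rDNA, and the other 1980 were at or below 5 RPTM in all 6 libraries. Of the kept bins, 40497 passed the filter in both genotypes, 5116 in *pkl-1* only and 8164 in WT only, so a bin of the last groups was admitted by the genotype in which it is high.

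Small RNA was sequenced from 2-week-old seedlings of *pkl-1* and of WT, with 3 libraries each. The *pkl-1* line carries a strong loss-of-function allele of *PICKLE* (*PKL*, AT2G25170) in the Col background, and WT is Col without it. Neither genotype received a treatment. The same table holds 3 libraries each of *nrpd1-3* and *nrpe1-11*, mutants of the largest subunits of RNA polymerases IV and V, and their levels are given beside some bins. The labels do not say that libraries of a genotype came from separate cultures, so the p-values measure the spread between these libraries, which may be technical. Small RNA reads do not measure the *PKL* transcript, so the genotype labels could not be checked against the targeted gene.

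PKL is a chromatin remodeling ATPase of the CHD3 family. Most 24-nt siRNA of plants begins with Pol IV transcripts that RDR2 makes double-stranded and DCL3 cuts, and it guides DNA methylation, in which Pol V transcripts serve as the scaffold. This RNA-directed DNA methylation (RdDM) places methyl groups on cytosines in all contexts and is known above all for the CHH context, where H is any base but guanine. In the heterochromatin around centromeres methylation is also maintained by other enzymes, whereas short transposons on the arms and next to genes depend on RdDM. Long inverted repeats are a known exception, since their transcripts fold back and can be cut without Pol IV.

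Sequences from the stretches of largest summed change, and from a long one at *CLSY1*, are shown first, as RefSeq gives them for TAIR10.1, 5′ to 3′ on the upper strand, with cytosines of the CHH context on that strand in capitals. The first 3 lie in bins that lost 24-nt signal in *pkl-1*, the fourth, upstream of *CLSY1*, also lost it, and the last 3 gained signal.
chr3:1969601-1969700, loss: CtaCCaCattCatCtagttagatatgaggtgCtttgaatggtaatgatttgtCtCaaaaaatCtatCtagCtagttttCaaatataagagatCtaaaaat
chr1:22699301-22699400, loss: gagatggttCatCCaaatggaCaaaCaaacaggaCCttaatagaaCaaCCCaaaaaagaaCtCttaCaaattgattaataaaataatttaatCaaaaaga
chr1:13675501-13675600, loss: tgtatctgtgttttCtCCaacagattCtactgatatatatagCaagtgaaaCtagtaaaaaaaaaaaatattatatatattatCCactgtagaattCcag
chr3:14761801-14761900, loss: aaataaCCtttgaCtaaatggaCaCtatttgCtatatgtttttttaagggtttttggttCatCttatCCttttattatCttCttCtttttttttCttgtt
chr5:10127801-10127900, gain: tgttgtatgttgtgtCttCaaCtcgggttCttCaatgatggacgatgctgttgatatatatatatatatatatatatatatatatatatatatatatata
chr2:5861301-5861400, gain: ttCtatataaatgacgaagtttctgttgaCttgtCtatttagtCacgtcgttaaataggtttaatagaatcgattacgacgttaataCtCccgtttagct
chr5:10613001-10613100, gain: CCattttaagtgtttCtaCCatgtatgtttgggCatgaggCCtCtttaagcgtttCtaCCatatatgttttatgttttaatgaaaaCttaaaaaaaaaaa

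The bins that lost signal held 14, 15, 9 and 14 such cytosines in the order shown, and the bins that gained it 5, 6 and 13. Over all bins this count did not separate the calls. The median number of CHH cytosines on both strands was 25 in bins that fell, 24 in bins that rose and 25 in bins that were not called. GC content was 34% at the median of the bins that fell, 31% of those that rose and 36% of the rest, and the gain at chr5:10127801-10127900 had 23% and a long run of alternating t and a.

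The libraries of *pkl-1* were not alike. Summed over the kept bins, the signal was 560325, 921506 and 1099054 RPTM in *pkl-1*, against 1138240, 1173589 and 1171783 RPTM in WT. Relative to the WT mean this was 48.3, 79.4 and 94.6% in *pkl-1*, against 98.0, 101 and 101% in WT. The *pkl-1* mean was 74.1 ± 23.6% and the WT mean 100 ± 1.71% (SD, n = 3 each). The groups did not overlap, and the exact two-sided permutation test gave p = 0.1, the smallest that 3 against 3 libraries allow. Without *pkl-1* replicate 1 the mean was 87.0% of WT. In that library rDNA took 47.1% of the nuclear 24-nt signal, against 28.9 and 26.0% in the other *pkl-1* libraries and 23.2 to 25.9% in WT, and its part in the results was not tested. Replicate 1 also stood apart from replicates 2 and 3 in WT, with chi-square values of 2.09 and 2.04 per degree of freedom, against 1.31 between replicates 2 and 3. Bins with few reads in the compared pair were left out of these values. Mapped reads ranged from 6967335 to 10087448 in *pkl-1* and from 7164212 to 12390784 in WT.

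A bin was called a hypoDSR (lower in *pkl-1*) or hyperDSR (higher in *pkl-1*; DSR, differential siRNA region) when limma gave a Benjamini-Hochberg adjusted p under 0.01 on log2(RPTM + 1). Of the 53777 bins, 4642 were hypoDSRs, which is 8.63%, and 1124 were hyperDSRs, which is 2.09%, so 10.7% were called. The median level of the hypoDSRs was 4.28 RPTM in *pkl-1* against 31.7 RPTM in WT, and that of the hyperDSRs 29.6 RPTM in *pkl-1* against 4.01 RPTM in WT. Among the hypoDSRs, 1916 were above 5 RPTM only in WT, and among the hyperDSRs 486 only in *pkl-1*. No read at all was found in *pkl-1* in 292 hypoDSRs, and none in WT in 63 hyperDSRs. The smallest absolute log2 difference that was called was 1.26. All *pkl-1* libraries lay below all WT libraries in 13739 bins (25.5%) and above them in 5034 (9.36%). Among the called bins, 4636 of the 4642 hypoDSRs and 1116 of the 1124 hyperDSRs did not overlap. Non-overlap of a called bin therefore adds little to its call.

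The balance of the calls depended on the scaling. The median log2 difference over the kept bins was -0.34 on the authors' scaling to all mapped reads. It was 0.06 when the libraries were set to equal nuclear totals, which here leave out the rDNA. With equal totals 3720 bins were hypoDSRs and 3249 hyperDSRs, so that hyperDSRs were 46.6% of the calls instead of 19.5%. Leaving out *pkl-1* replicate 1 gave 4276 hypoDSRs and 1850 hyperDSRs, and leaving out *pkl-1* replicate 2 or 3 gave 478 or 531 hyperDSRs. With any 1 WT library left out, 2095 to 2211 hypoDSRs and 541 to 576 hyperDSRs remained past the threshold. Values within a library, such as the share of its signal in a class of bins, do not depend on this scaling.

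A larger share of the signal lay in the pericentromeres in *pkl-1* than in WT. Bins were assigned to a pericentromere, the longest stretch of 100-kb windows in which protein-coding genes covered less than 50% of the chromosome's median, or to an arm. The 5 pericentromeres spanned 2500 to 5100 kb and held 25053 bins, and the arms held 28724. Pericentromere bins took 40.6, 37.6 and 37.6% of the signal of the *pkl-1* libraries, against 32.5, 30.9 and 30.8% in WT. All 3 *pkl-1* libraries were thus above all WT libraries, with a difference of the means of 7.16 percentage points. The exact two-sided permutation test gave p = 0.1, the smallest possible, and 0.1 after Benjamini-Hochberg adjustment over 6 such shares. In bins whose every 24-mer occurs once in the genome the shares averaged 36.4% in *pkl-1* and 25.7% in WT.

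**Figure D1:**
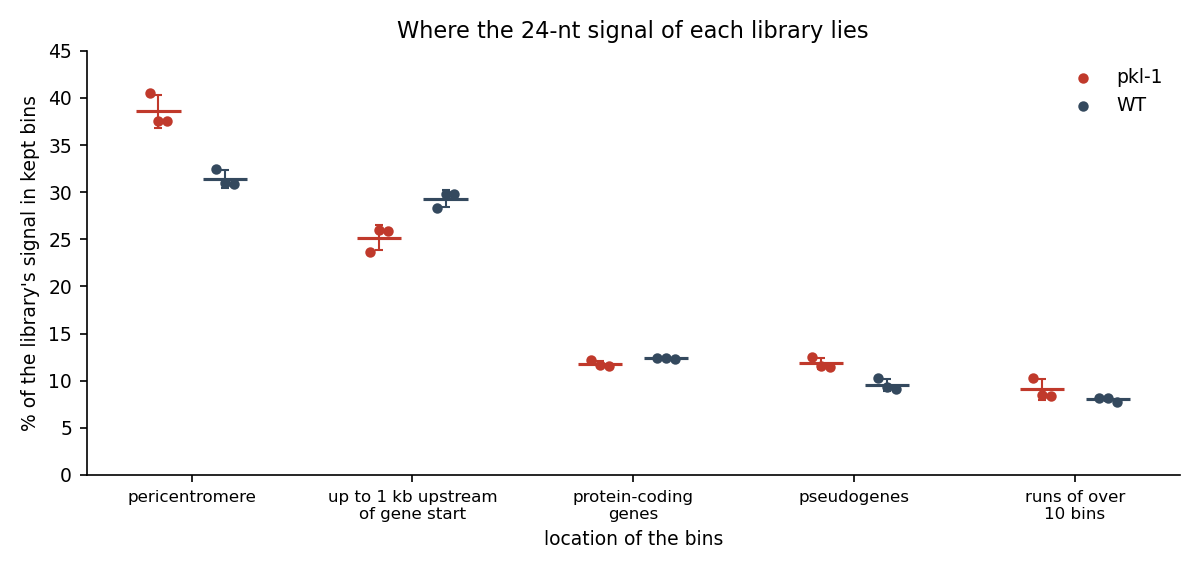
Share of each library's 24-nt signal in kept bins, in percent, that lay in 5 classes of bins, for *pkl-1* (left of each pair) and WT. Points are libraries, horizontal lines means and bars SD (n = 3 each). The *pkl-1* libraries have 37.6 to 40.6% of their signal in pericentromeres and the WT libraries 30.8 to 32.5%, and the genotypes do not overlap in any of the 5 classes.

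Most hypoDSRs lay on the arms. Of the arm bins 13.2% were hypoDSRs, against 3.34% of the pericentromere bins, a ratio of 3.96 that ranged from 2.37 to 5.41 over the alternative settings. This order was found on each chromosome, with 10.4 to 14.8% of arm bins and 1.83 to 3.87% of pericentromere bins. The summed arm signal of *pkl-1* was 41.8, 72.2 and 86.1% of the WT mean, against 96.5, 102 and 102% in the WT libraries. In the pericentromeres the *pkl-1* libraries had 62.4, 94.9 and 113% of the WT mean, against 101, 99.6 and 99.1% in the WT libraries. The arm sums did not overlap between the genotypes, whereas the pericentromere sums did. HyperDSRs were 2.57% of arm bins and 1.54% of pericentromere bins. The order of these shares turned round when only bins above 20 RPTM were kept (5.77 and 6.17%). At an adjusted p under 0.05 it also turned round, by a small margin (4.27 and 4.29%).

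The share of hypoDSRs grew with the distance from the middle of the pericentromere. It was 1.08% within 0.5 Mb, 1.87% at 0.5 to 1 Mb, 4.43% at 1 to 2 Mb and 8.64% at 2 to 3 Mb. Beyond 3 Mb it stayed between 14.3 and 16.1%. HyperDSRs were 0.94% within 0.5 Mb and 3.05% beyond 12 Mb. The summed signal of *pkl-1* was 71.4, 98.0 and 115% of the WT mean within 0.5 Mb 37.3, 65.2 and 76.8% at 8 to 12 Mb, and 43.3, 70.5 and 83.1% beyond 12 Mb. All 3 libraries were thus lowest at 8 to 12 Mb and higher again at the far end. The values at 5 to 8 Mb were close to the lowest, with 38.7, 68.8 and 82.4%. The class at 8 to 12 Mb holds the inverted repeat described further on, which had 15.6, 32.9 and 39.0% of the WT mean in *pkl-1*. The class was not summed without this repeat, so a minimum at 8 to 12 Mb apart from it was not tested.

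**Figure D2:**
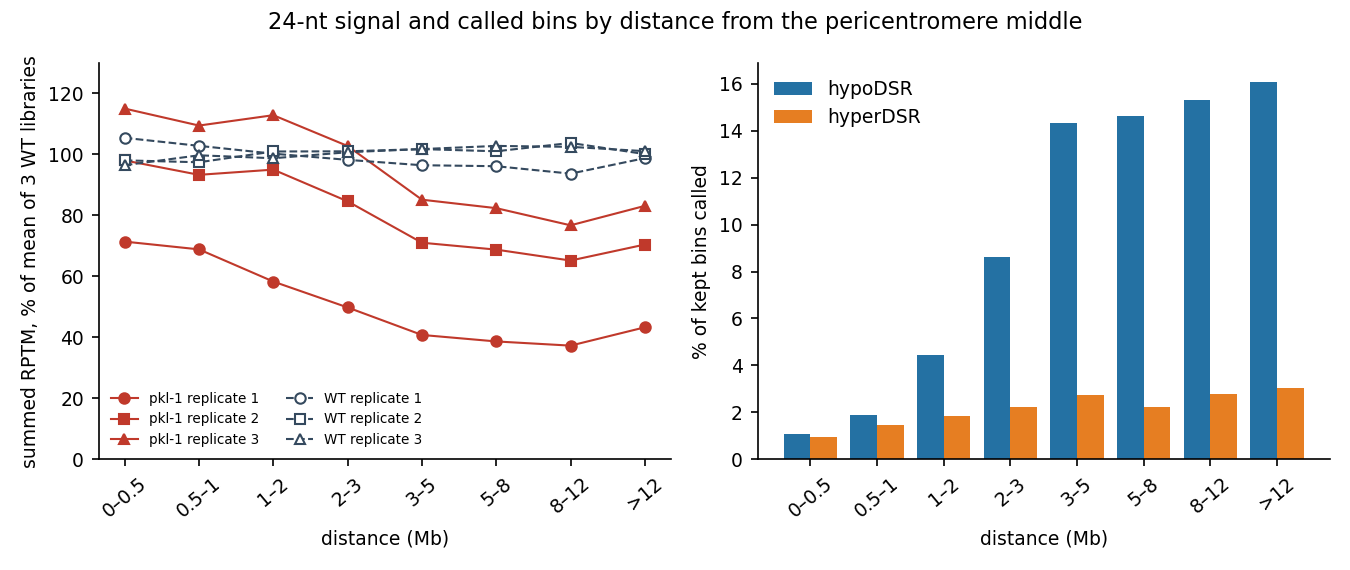
Left, summed 24-nt signal of each *pkl-1* and WT library in percent of the mean of the 3 WT libraries, by distance in Mb from the middle of the pericentromere; right, percent of kept bins called hypoDSR or hyperDSR. All 3 *pkl-1* lines are lowest at 8 to 12 Mb and higher again beyond 12 Mb, and hypoDSRs increase from 1.08 to 16.1% of the bins. The class at 8 to 12 Mb holds the inverted repeat on chromosome 3, and its part in the minimum was not tested.

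In windows of 500 kb the same picture was seen locally. All *pkl-1* libraries were below all WT libraries in 144 of 192 arm windows, and in 8 of 39 pericentromere windows. *pkl-1* replicates 2 and 3 were both above all WT libraries in 16 pericentromere windows and in 8 arm windows. The lowest window, chr4:16000001-16500000, had 17.7, 33.4 and 35.6% of the WT mean in *pkl-1*, and 13 of its 37 bins were hypoDSRs. Next came chr3:1500001-2000000 with 16.6, 34.7 and 41.2%, where 58 of 115 bins were hypoDSRs, 54 of them in the inverted repeat described further on. The highest, chr5:10000001-10500000, had 74.6, 132 and 196% of the WT mean in *pkl-1*, and the single bin chr5:10127801-10127900 gained more signal than the window as a whole.

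The loss was larger at bins with more siRNA in WT. Classes were formed from the level in 1 WT library and the change was computed against the other WT libraries, each WT library in turn, so that a level that is high by sampling does not create a loss. The median log2 difference was -0.31 at 5 to 10 RPTM, -0.52 at 10 to 20, -0.72 at 20 to 50, -0.89 at 50 to 200 and -1.19 above 200 RPTM. It was 0.72 in bins without a read and 0.12 in bins of up to 5 RPTM in the WT library that set the class, but there the filter on the 6 libraries favours bins high elsewhere. Without *pkl-1* replicate 1 the order was kept, with -0.06 at 5 to 10 RPTM and -0.86 above 200 RPTM.

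At a like WT level, arm bins lost more than pericentromere bins. Above 200 RPTM the median log2 difference was -1.31 on the arms and -0.91 in the pericentromeres, at 50 to 200 RPTM -1.05 and -0.58, and at 5 to 10 RPTM -0.46 and -0.18. A loss in pericentromere bins of 5 to 10 RPTM was not seen in the summed signal, which was 101% of WT. Without *pkl-1* replicate 1 their median was 0.06 and their sum 117% of WT, while the arm median at that level was -0.20. Summed signal above 200 RPTM was 52.0% of WT on the arms and 75.1% of WT in the pericentromeres. Among bins with a WT mean of 50 to 200 RPTM, 37.4% of the arm bins and 19.0% of the pericentromere bins were hypoDSRs. Above 200 RPTM these were 255 of 495 arm bins (51.5%) and 40 of 125 pericentromere bins (32.0%). Higher read numbers also make a change of a given size easier to call, which the medians do not share.

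**Figure D3:**
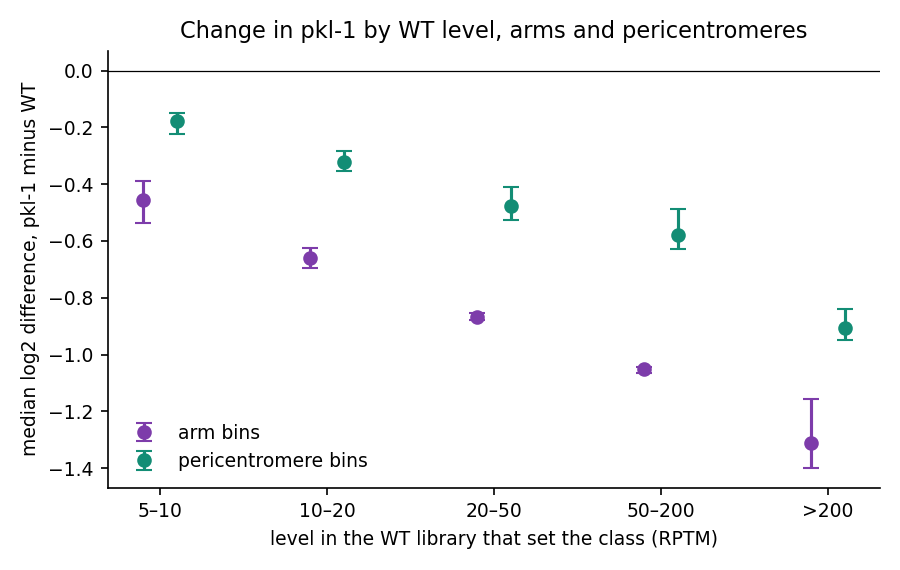
Median log2 difference of *pkl-1* minus WT on log2(RPTM + 1), by the level in the WT library that set the class, for arm and pericentromere bins. Points are means over 3 choices of that library and bars their lowest and highest value; the median drops to -1.31 on the arms and to -0.91 in the pericentromeres above 200 RPTM.

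Over all kept bins, those just upstream of genes were called most often. Within 500 bp upstream of the nearest protein-coding gene start 19.7% of bins were hypoDSRs, at 0.5 to 1 kb upstream 16.3%, at 1 to 2 kb upstream 11.9% and beyond 5 kb upstream 2.11%. The first 500 bp downstream of the start had 11.8%. HyperDSRs were 4.20% within 500 bp upstream and 1.43% beyond 5 kb upstream, so calls of both directions were densest in the same place. Within 500 bp upstream, 22.2% of arm bins and 9.02% of pericentromere bins were hypoDSRs. Among arm bins of 50 to 200 RPTM in WT the share was 43.3% within 500 bp upstream, 36.1% at 1 to 2 kb upstream and 29.0% beyond 5 kb upstream, the last over 62 bins. At the same WT level the first 500 bp downstream had a share of 48.3% over 116 bins, above that just upstream. At 20 to 50 RPTM the order was the other way, with 31.6% within 500 bp upstream and 25.2% within 500 bp downstream, and at 10 to 20 RPTM these were 21.0 and 21.8%.

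**Figure D4:**
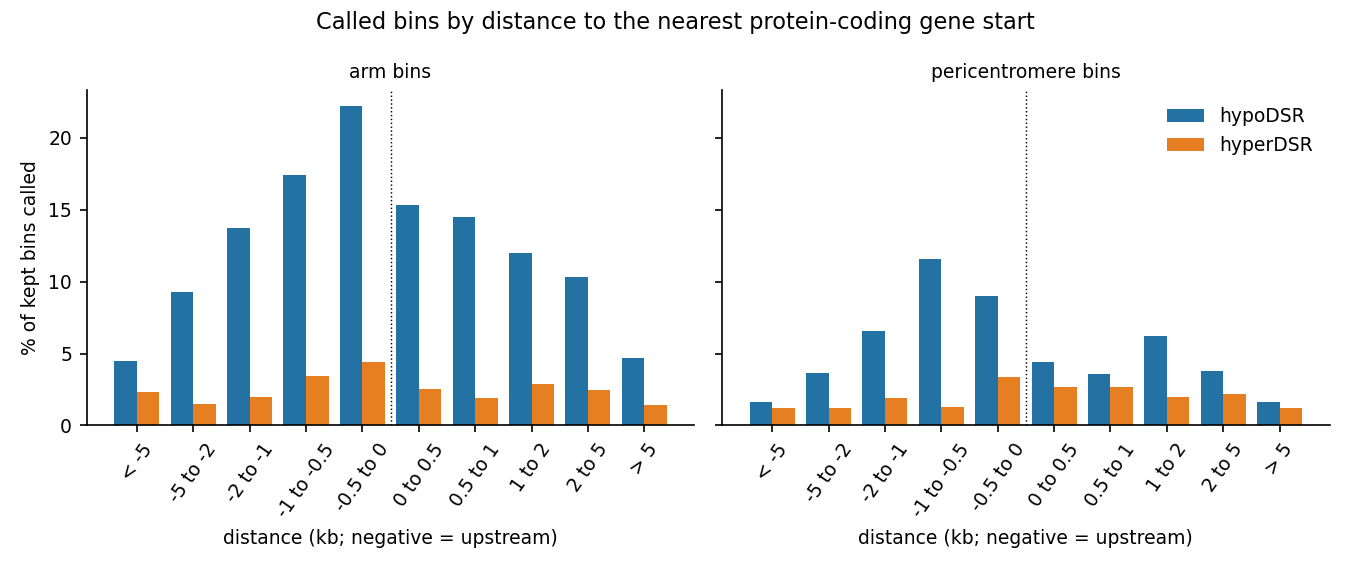
Percent of kept bins called hypoDSR or hyperDSR, by distance in kb to the nearest protein-coding gene start (dotted line), for arm bins and pericentromere bins. On the arms 22.2% of bins in the 500 bp before the start are hypoDSRs and 4.49% of those over 5 kb upstream.

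The shares of signal per library were compared in the same way. Bins up to 1 kb upstream of a gene start took 23.6, 26.0 and 25.9% of the signal in *pkl-1*, against 28.3, 29.8 and 29.8% in WT, without overlap. Pseudogene bins, which in this annotation include transposon remnants, took 12.5, 11.5 and 11.5% in *pkl-1*, against 10.3, 9.34 and 9.10% in WT, again without overlap. For both shares the exact permutation p was 0.1 (n = 3 each). In the pericentromeres the pseudogene bins had 77.7, 114 and 134% of the WT mean in *pkl-1*, against 107, 99.1 and 93.5% in the WT libraries, and 1.04% of them were hypoDSRs and 1.05% hyperDSRs. Protein-coding gene bodies took 12.2, 11.6 and 11.5% in *pkl-1*, against 12.4, 12.4 and 12.3% in WT, but in bins of unique 24-mers the direction turned, with means of 15.4% in *pkl-1* and 13.8% in WT.

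By annotation, 10.3% of intergenic bins, 10.8% of protein-coding bins and 2.50% of pseudogene bins were hypoDSRs, and 2.44, 2.30 and 0.97% were hyperDSRs. By base composition, 4.11% of the bins in the lowest of 5 classes of GC content were hyperDSRs and 0.91% of those in the highest, with 9.86 and 3.66% hypoDSRs. By mappability, 11.8% of bins with only unique 24-mers and 5.51% of bins with none were hypoDSRs. The libraries differed in the GC content of their signal, with 36.1, 34.8 and 34.7% in *pkl-1* and 35.6, 34.7 and 34.8% in WT, and its part in these shares was not tested. When the median deviation by GC class was taken out within each library, 4839 hypoDSRs and 1270 hyperDSRs were called.

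The kept bins formed 31380 runs of adjoining bins, of which 20023 were single bins and the longest had 72. A hypoDSR was found in 3583 runs, a hyperDSR in 1002 and both in 116. In 412 runs of at least 2 bins every bin was a hypoDSR. Most calls stood alone, since 3052 of the 3749 stretches of adjoining hypoDSRs and 946 of the 1027 stretches of hyperDSRs were 1 bin long. Stretches of 3 or more bins numbered 127 for hypoDSRs and 10 for hyperDSRs, and the longest had 20 and 6 bins.

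Neighbouring bins tended to be called alike. Of the hypoDSRs with an adjoining kept bin 48.3% lay next to another hypoDSR, while 9.76% of all bins with a neighbour were hypoDSRs. Of the hyperDSRs 25.5% lay next to another hyperDSR, against 2.07% of all bins with a neighbour. Among 22397 adjoining pairs, 893 were both hypoDSRs, 97 both hyperDSRs and 74 called in opposite directions. Pearson's r between the log2 differences was 0.54 for adjoining bins, 0.42 at 2 bins apart, 0.31 at 5, and 0.30 at 20 bins apart (9137 pairs). Adjoining bins share reads across their border and all pairs share the 6 libraries, so these values describe the data only.

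By length of the run, hypoDSRs were 6.73% of bins in single-bin runs, 10.5% in runs of 2, 10.8% in runs of 3 to 5, 6.04% in runs of 6 to 10 and 1.62% in runs of 11 to 20. They were 12.9% of the 529 bins in runs over 20, where the inverted repeat held 54 of the 68 called bins. At the ends of arm runs of 3 or more bins 14.2% of bins were hypoDSRs and inside them 13.6%. In the pericentromeres these were 4.18% at the ends and 3.39% inside. Runs over 10 bins took 10.3, 8.52 and 8.35% of the signal in *pkl-1*, against 8.15, 8.11 and 7.76% in WT, without overlap (exact permutation p = 0.1, n = 3 each). Without the inverted repeat the means were 8.48% in *pkl-1* and 6.46% in WT.

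In some runs the profile changed shape, with losses and gains side by side. In the intergenic run chr3:9977001-9977600 the first bin had 3.97, 10.05 and 1.39 RPTM in *pkl-1*, against 285, 205 and 175 RPTM in WT. The last bin, 500 bp further on, had 61.5, 139 and 142 RPTM in *pkl-1*, against 7.26, 11.5 and 11.2 RPTM in WT. The 4 hypoDSRs and the hyperDSR of this run did not overlap between the genotypes, like nearly all called bins. In chr3:15803101-15803700 the first 4 bins were hypoDSRs, the first with 3.97, 10.05 and 5.58 RPTM in *pkl-1* against 75.9, 48.3 and 54.4 RPTM in WT. Its next bin was a hyperDSR with 15.9, 30.1 and 47.4 RPTM in *pkl-1*, against 3.23, 2.54 and 4.19 RPTM in WT.

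The largest loss lay in an inverted repeat on the arm of chromosome 3. Its left arm, chr3:1963728-1966952 of 3225 bp, matched the reverse complement of its right arm, chr3:1967220-1970445 of 3226 bp, at 3195 of 3222 aligned bases (99.2%), with 267 bp between them. The right arm overlaps AT3G06435, annotated as a protein-coding gene of unknown function. A window of the left arm and its partner on the right arm are shown, with the base that differs in capitals.
left arm, chr3:1964801-1964900, upper strand: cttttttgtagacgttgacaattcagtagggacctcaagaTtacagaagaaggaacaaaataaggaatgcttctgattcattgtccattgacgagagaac
right arm, chr3:1969270-1969369, reverse complement: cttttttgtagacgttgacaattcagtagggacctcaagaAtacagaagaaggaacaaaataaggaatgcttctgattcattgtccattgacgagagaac

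Over the 66 bins of the repeat, in 2 runs of 33, the signal was 3009, 6344 and 7515 RPTM in *pkl-1*, against 16584, 22085 and 19137 RPTM in WT. The means were 5623 ± 2338 RPTM in *pkl-1* and 19269 ± 2753 RPTM in WT (SD, n = 3 each). Of the 66 bins 54 were hypoDSRs and none was a hyperDSR, and in 63 all *pkl-1* libraries were below all WT libraries. The 12 other bins also had negative log2 differences, the range over all 66 being -2.23 to -0.57 with a median of -1.81. In *nrpd1-3* the repeat had 19827, 30449 and 24773 RPTM and in *nrpe1-11* 11021, 14011 and 14913 RPTM. On average 21.5% of the 24-mers over these bins occur once in the genome, with 0 to 82.9% per bin and none in 16 bins, and reads of the other 24-mers cannot be assigned to one place. In the longest stretch of adjoining hypoDSRs on each arm, the bin with the largest log2 difference was chr3:1964801-1964900 on the left (log2 difference -2.10, SE 0.34, limma adjusted p = 3.41e-05) and chr3:1969601-1969700 on the right (-2.13, SE 0.37, adjusted p = 0.000115). Both kept the call under each of the 20 alternatives that gave them a value.

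**Figure D5:**
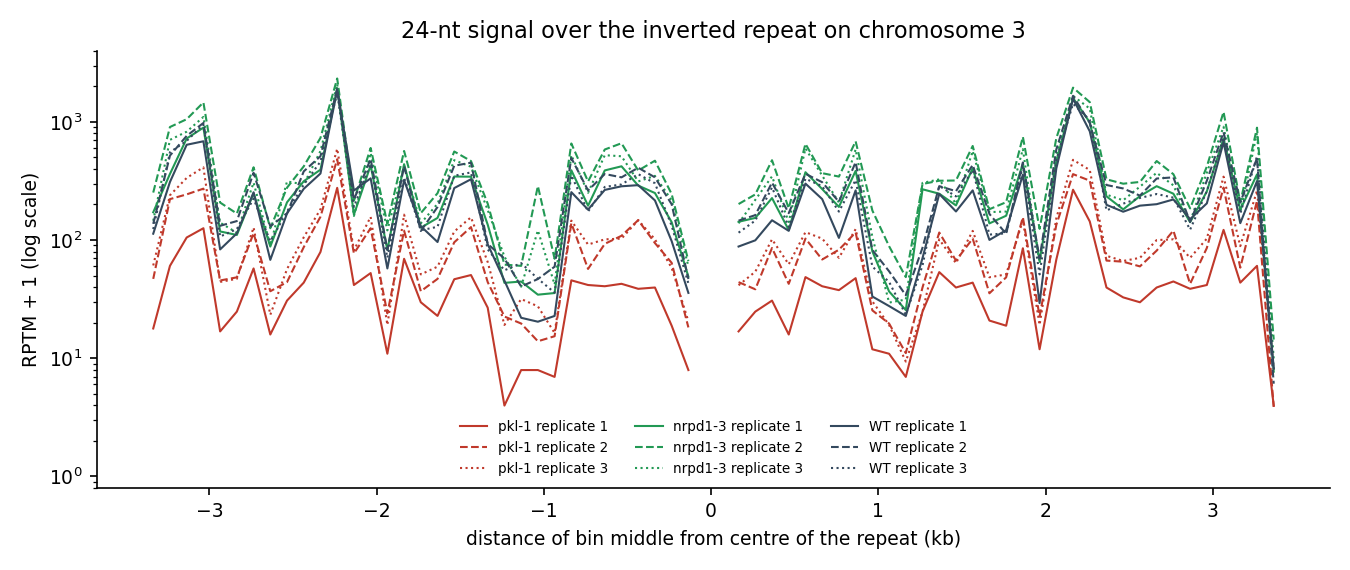
24-nt signal over the inverted repeat in RPTM + 1 on a log axis, by distance in kb of each bin from the repeat's centre, 1 line for each library of *pkl-1*, *nrpd1-3* and WT. The *pkl-1* lines run below those of WT in 63 of 66 bins. The peaks lie at mirrored positions on both arms, but reads of 24-mers that both arms hold cannot be assigned to one arm.

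Few calls were made in the other bins that kept siRNA in *nrpd1-3*. Outside the inverted repeat 574 bins averaged above 20 RPTM in *nrpd1-3*, and 4 of them were hypoDSRs (0.70%) and 7 hyperDSRs (1.22%). Their summed signal was 104, 105 and 125% of the WT mean in *pkl-1*, against 106, 96.1 and 97.8% in the WT libraries. Of the 52297 bins at up to 5 RPTM in *nrpd1-3*, 8.74% were hypoDSRs and 2.12% hyperDSRs.

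Losses were nearly complete in some bins and partial in others. The intergenic bins chr1:13675501-13675700 in the pericentromere had 3.97, 28.7 and 16.7 RPTM in *pkl-1*, against 1609, 1750 and 1655 RPTM in WT. The first of them had a log2 difference of -6.90 (SE 0.43, limma adjusted p = 4.12e-12). In *nrpe1-11* they kept 515, 468 and 578 RPTM. At chr1:22699301-22699400, which lies 364 bp upstream of a gene start, the levels were 518, 1398 and 1510 RPTM in *pkl-1* and 2742, 3167 and 3251 RPTM in WT (log2 difference -1.56, SE 0.36, limma adjusted p = 0.00259). These groups did not overlap, like those of 3743 of the 3749 stretches of hypoDSRs. The call at chr1:22699301-22699400 was lost in 5 of 20 alternatives, among them each that left out a WT library.

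The gains were of another order in *pkl-1* than in WT at some bins. The intergenic bin chr2:5861301-5861400 had 1190, 2924 and 2946 RPTM in *pkl-1*, against 60.5, 81.4 and 85.1 RPTM in WT (log2 difference 4.84, SE 0.36, limma adjusted p = 8.79e-11). In *nrpd1-3* it had 1.12, 22.3 and 0 RPTM. At chr5:10613001-10613200 the levels were 628, 1137 and 1385 RPTM in *pkl-1*, against 215, 229 and 190 RPTM in WT. The largest gain in RPTM, at chr5:10127801-10127900, came from 2325, 4781 and 9395 RPTM in *pkl-1* against 1277, 996 and 1294 RPTM in WT. That call (log2 difference 2.00, SE 0.38, limma adjusted p = 0.000336) was lost in 5 of 20 alternatives, including those without *pkl-1* replicate 3 and without WT replicate 1 or 2. In *BIGYIN* (AT3G57090), a gene of mitochondrial and peroxisomal fission, chr3:21130501-21130600 had 434, 1117 and 1397 RPTM in *pkl-1*, against 153, 209 and 285 RPTM in WT, and this call was lost in 3 of 20 alternatives, 1 of them without WT replicate 1.

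The longest gains lay on the short arm of chromosome 4, over and next to *MIR841b*. The gene is shown by its mature relative and by the bin of the largest change, which holds the bases that line up with that relative. The gain at the gene also covers annotated pseudogenes, and whether it is centred on the miRNA was not tested. The mature miR841a has bases 2 to 8, the seed, in capitals, and in the genomic bin the bases that line up with it are in capitals.
mature miR841a: uACGAGCCacuugaaacugaa
chr4:2184301-2184400, in *MIR841b*: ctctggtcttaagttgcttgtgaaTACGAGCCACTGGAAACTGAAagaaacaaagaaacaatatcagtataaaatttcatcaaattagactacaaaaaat

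The aligned bases of the bin, chr4:2184325-2184345, were identical to the mature miR841a at 20 of 21 positions. The 6 kept bins that overlap *MIR841b* had 303, 474 and 1283 RPTM in *pkl-1*, against 13.7, 16.5 and 11.2 RPTM in WT, and 5 were hyperDSRs. The printed bin had a log2 difference of 6.18 (SE 0.48, limma adjusted p = 2.25e-10). In *nrpd1-3* the 6 bins had 30.1, 93.7 and 44.7 RPTM. The next stretch, chr4:2185301-2185900, had 235, 271 and 332 RPTM in *pkl-1*, against 8.07, 21.6 and 11.2 RPTM in WT, over 6 adjoining hyperDSRs. The third longest gain, 4 bins at chr5:15359501-15359900 in the pseudogene AT5G38383, had 59.5, 80.4 and 94.8 RPTM in *pkl-1*, against 16.9, 5.09 and 8.37 RPTM in WT. The related *MIR841a*, which lies in the histone gene *HTA4*, had 94.2, 113 and 218 RPTM in *pkl-1*, against 42.8, 40.7 and 41.9 RPTM in WT, with 1 hyperDSR among 3 bins. Of 108 miRNA genes with a kept bin, 5 held a hyperDSR and 10 a hypoDSR. Of the 114 bins annotated as miRNA 7.02% were hypoDSRs and 2.63% hyperDSRs, near the 8.63 and 2.09% of all bins.

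Bins of protein-coding genes were called somewhat more often than all bins, with 10.8% hypoDSRs and 2.30% hyperDSRs against 8.63 and 2.09%, and this difference was not tested. Of 2010 such genes with a kept bin in the body, 463 held a hypoDSR, 117 a hyperDSR and 19 both, and 28 held at least 3 hypoDSRs and 4 at least 3 hyperDSRs. After AT3G06435, with 19 of its 22 bins, the most hypoDSRs were in AT3G17400, which encodes an F-box protein. Its 5 bins, all called, had 43.6, 80.4 and 55.8 RPTM in *pkl-1*, against 884, 826 and 768 RPTM in WT. AT3G49230, of unknown function, had 9.91, 23.0 and 23.7 RPTM in *pkl-1*, against 284, 357 and 314 RPTM in WT, with 5 of 7 bins called. The glycosyltransferase gene AT2G41640 overlaps AT2G41650, and both share the same 6 bins, 4 of them hypoDSRs, with 77.3, 94.7 and 110 RPTM in *pkl-1* against 344, 350 and 353 RPTM in WT. The genotypes did not overlap in any of these genes, which were chosen for their called bins.

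The genes with the most hyperDSRs had 3 each. *UNE15* (AT4G13560), of the late embryogenesis abundant family, had 1071, 1659 and 1873 RPTM in *pkl-1*, against 640, 591 and 463 RPTM in WT, over 14 bins. Their stretch chr4:7882901-7883100 had 887, 1339 and 1516 RPTM in *pkl-1*, against 523, 420 and 341 RPTM in WT, and its bin chr4:7883001-7883100 lost its call in 6 of 20 alternatives, including those without *pkl-1* replicate 2 or 3 and without WT replicate 2 or 3. The gene kept 625, 718 and 379 RPTM in *nrpd1-3*, whereas the methyltransferase-family gene AT2G16030 kept 5.58, 16.4 and 7.14 RPTM there. AT2G16030 had 905, 1154 and 1311 RPTM in *pkl-1*, against 536, 497 and 423 RPTM in WT. AT1G63870, a disease resistance gene of the TIR-NBS-LRR class, had 162, 313 and 357 RPTM in *pkl-1*, against 47.6, 56.0 and 54.4 RPTM in WT. *HTA4* had 390, 481 and 574 RPTM in *pkl-1*, against 200, 158 and 131 RPTM in WT, in bins that overlap *MIR841a* in part. Like *UNE15*, it kept signal in *nrpd1-3*, with 274, 364 and 191 RPTM. *UNE15* reaches to chr4:7883926 and *HTA4* begins at chr4:7884516, so these genes lie close together. AT4G03380 changed in both directions, with 3 hypoDSRs and 2 hyperDSRs among 9 bins, and its sums of 3796, 5091 and 6464 RPTM in *pkl-1* and 3621, 4093 and 3421 RPTM in WT overlapped.

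Of 52 genes of the DNA methylation machinery, a list taken mainly from the study, 19 had a kept bin in the body or up to 2 kb upstream. *PKL* itself had none. Among the 56 bins of these genes 17 were hypoDSRs (30.4%) and 3 hyperDSRs (5.36%), against 8.63 and 2.09% of all bins. Among the 22339 kept bins in the body or up to 2 kb upstream of any protein-coding gene, 14.2% were hypoDSRs and 2.77% hyperDSRs. *CLSY1* held 8 of the 17 hypoDSRs, in adjoining bins that can share reads, and the other 18 genes had 9 in 48 bins (18.8%). HypoDSRs lay at 8 genes and hyperDSRs at 3.

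The longest stretch outside the inverted repeat lay upstream of *CLSY1* (*CHR38*, AT3G42670), whose product works with Pol IV. All 8 bins of chr3:14761601-14762400, with middles at -1022 to -1722 bp from the start, were hypoDSRs. They had 5.95, 18.7 and 9.76 RPTM in *pkl-1*, against 171, 240 and 200 RPTM in WT, and kept 91.8, 86.7 and 108 RPTM in *nrpe1-11*. Among them 3 bins had no read in *pkl-1*, and against a limit of 3 reads over the group they were at least 10.01-, 27.4- and 29.5-fold lower. The call of 1 of the 8, chr3:14762001-14762100, was lost in 9 of 18 alternatives, including those without *pkl-1* replicate 1 or 3 and without any 1 WT replicate. The bin chr3:14762201-14762300 lost it in 4 of 19, including those without WT replicate 1 or 3, and chr3:14762301-14762400 in 6 of 21, including those without any 1 WT replicate.

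Among other genes of siRNA production, the *DCL3* bin chr3:15752801-15752900 had 2.97, 8.61 and 13.9 RPTM in *pkl-1*, against 21.8, 31.8 and 37.7 RPTM in WT, a call lost in 11 of 21 alternatives, including those without *pkl-1* replicate 1 or 2 and without any 1 WT replicate. The called bin at *HEN1*, which methylates small RNA ends, had 32.7, 51.7 and 73.9 RPTM in *pkl-1*, against 154, 146 and 151 RPTM in WT. It lost its call in 6 of 20, including those without *pkl-1* replicate 2 and without any 1 WT replicate. The 4 kept bins of *HEN1* had a median log2 difference of 0.11, and their sums were 59.5, 89.0 and 113 RPTM in *pkl-1*, against 173, 182 and 183 RPTM in WT. Upstream of genes that act with Pol V or later, the called *IDN2* bin had 1.98, 2.87 and 19.5 RPTM in *pkl-1*, against 70.2, 73.8 and 74.0 RPTM in WT. The 3 kept bins of *IDN2* had a median log2 difference of 0.66, and their sums were 29.7, 20.1 and 61.3 RPTM in *pkl-1*, against 87.2, 83.9 and 86.5 RPTM in WT. The *FDM2* bin had 0, 0 and 1.39 RPTM in *pkl-1*, against 32.3, 25.4 and 16.7 RPTM in WT. The *DRD1* bin had 0.99, 2.87 and 1.39 RPTM in *pkl-1*, against 7.26, 19.1 and 14.0 RPTM in WT, and lost its call in 8 of 19 alternatives, including those without any 1 WT replicate. The *NERD* bin, which lies within the neighbouring gene AT2G16490, had 2.97, 2.87 and 6.97 RPTM in *pkl-1*, against 23.4, 29.3 and 36.3 RPTM in WT. *VIM3*, which binds methylated CG, had 3 hypoDSRs, the strongest in WT with 7.93, 12.9 and 16.7 RPTM in *pkl-1* against 118, 109 and 101 RPTM in WT.

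The 3 hyperDSRs of this list lay upstream of *SUVH9*, *RDM4* and *DMS11*, that of *RDM4* within the neighbouring gene AT2G30290. The called *SUVH9* bin had 5.95, 11.5 and 16.7 RPTM in *pkl-1*, against 0, 1.27 and 0 RPTM in WT. It lost its call in 3 of 19 alternatives, including that without *pkl-1* replicate 3. Over the 3 kept bins of *SUVH9* the sums overlapped, with 76.3, 139 and 166 RPTM in *pkl-1* and 55.7, 112 and 130 RPTM in WT. The *RDM4* bin had 7.93, 11.5 and 5.58 RPTM in *pkl-1* and no read in WT, and was at least 7.54-fold higher against a limit of 3 reads over the group. It lost its call in 3 of 19 alternatives, including that without *pkl-1* replicate 2. The *DMS11* bin had 17.8, 30.1 and 62.7 RPTM in *pkl-1*, against 6.46, 7.63 and 9.77 RPTM in WT, and its call was lost in 8 of 21 alternatives, including those without *pkl-1* replicate 2 or 3 and without any 1 WT replicate. None of the called bins of the list overlapped between the genotypes, as was the case for nearly all called bins. The genes not named as called had bins that did not pass the test, such as *MET1* with 65.4, 87.6 and 92.0 RPTM in *pkl-1* and 106, 85.2 and 89.3 RPTM in WT.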

How the data were processed

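Small RNA of *pkl-1* and WT seedlings (3 libraries each) was analysed. The authors trimmed adapters, removed reads of structural RNAs, mapped reads of 18 to 30 nt to TAIR10 and counted 24-nt reads in 100-bp bins, and the deposited values are a signal per bin in RPTM. The submitters' processing notes name CASAVA 1.8, Trim Galore 0.4.0, BWA 0.7.15, bedtools and edgeR. Reads across a border count in both bins. The methods state that only uniquely mapped reads were used, yet 4994 kept bins (9.29%) have no unique 24-mer and hold 9.05% of the WT signal. The values are whole multiples of 1 read (100% within 0.1 read). The value of 3 reads was 2.97 to 4.31 RPTM per *pkl-1* library and 2.42 to 4.19 RPTM per WT library, limits that cover counting error only.

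The study used edgeR. Because the values are normalized, log2(RPTM + 1) was fitted here with limma 3.58.1 (lmFit, eBayes with trend, R 4.3.3) for *pkl-1* and WT only, two-sided, with Benjamini-Hochberg adjustment over the 56658 bins above 5 RPTM in any of the 12 libraries. edgeR 4.0.16 and DESeq2 1.42.0 were run on the recovered reads. The fit was tested on simulated data. Exact permutation tests used scipy 1.17.1, and annotation and sequence came from RefSeq for TAIR10.1, in which no bin of the files ended beyond its chromosome. Unmatched value columns numbered 0.

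Named were the 5 stretches of largest summed loss and of largest summed gain, the 3 longest in each direction, the 5 protein-coding genes with most bins called in each direction, and the methylation genes with kept bins. A stretch of the first kind is not reported here. The mixed runs were chosen after their values were seen. Members and lists were chosen with earlier results of these data known.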

Additional observations from a re-analysis of the deposited data

How the results depend on the processing

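Of 154 values of the main results under alternatives, 111 were taken as unchanged, 42 moved and 1 reversed. Unchanged meant within 1.5 times for counts. For shares of a library's signal and for its nuclear total it meant the same direction only, whatever the size. For the rest it meant within the spread of the fits with 1 library left out. The hypoDSRs (4642) numbered 1802 with a pseudocount of 0.1, 3002 with DESeq2, which left 23071 of 56658 bins without an adjusted p, 7681 at an adjusted p under 0.05, 1606 among the 14217 bins of unique 24-mers, and 2095 to 5177 with 1 library left out. edgeR's quasi-likelihood test on the recovered reads gave 5253 hypoDSRs and 1458 hyperDSRs. The hyperDSRs (1124) numbered 354, 1903, 2301 and 379 with these 4 changes (pseudocount, DESeq2, threshold, unique bins), 3249 with equal nuclear totals, 3325 with quantile normalization, 3436 with edgeR after TMM, and 478 to 1850 with 1 library left out. HyperDSRs were 19.5% of the calls, but 46.6% with equal totals, 44.3% with quantile normalization, 39.8% with TMM, 38.8% with DESeq2 and 9.30 to 30.2% with 1 library left out. The ratio of arm to pericentromere hypoDSR percentages (3.96) was 2.37 above 20 RPTM and 3.59 to 5.41 with 1 library left out. The share of hypoDSRs next to another (48.3%) was 34.7% with a pseudocount of 0.1, 57.3% above 20 RPTM, 39.1% with DESeq2, 52.0% at an adjusted p under 0.05, 55.3% in unique bins and 42.9 to 47.1% with 1 library left out. The share of signal in protein-coding genes reversed in unique bins, with *pkl-1* 1.56 points above WT. The cause was not tested, except that unique bins are fewer.

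Settings chosen after seeing the data gave 2809 hyperDSRs (43.0% of calls, 44.3% of hypoDSRs next to another) with equal totals without *pkl-1* replicate 1, and 1852 hypoDSRs, a ratio of 5.27 and 37.9% next to another with replicates 2 and 3 of both genotypes only. The replicate block gave 6133 hypoDSRs and 1663 hyperDSRs. Same-numbered libraries deviated together with r = 0.17, 0.04 and 0.06, and each library correlated best with its own number, a hint from the data only. Of 33 named bins 15 lost the call under at least 1 alternative, none under the block, and no direction turned in 662 values. Bins near 5 RPTM hold few reads, and small differences there were not detectable at this depth.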

Other observations

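A run chosen after its values were seen, chr4:2674001-2674700 just outside the pericentromere of chromosome 4, held both directions again. Its 4 hypoDSRs lay together, the strongest with 0, 5.74 and 4.18 RPTM in *pkl-1*, against 57.3, 38.2 and 62.8 RPTM in WT. The last bin was a hyperDSR with 27.8, 43.1 and 106 RPTM in *pkl-1*, against 10.5, 12.7 and 14.0 RPTM in WT. The first bin was not called, with 46.6, 99.0 and 109 RPTM in *pkl-1* and 58.1, 71.2 and 74.0 RPTM in WT.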
